A study of Mus musculus with 3 samples.

Results

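The members described here are 109 of the 31058 genes in the deposited table: genes whose symbols begin with Cyp2, Cyp4, Ugt1, Ugt2, Gsta, Gstm, Gstp or Gstt. Cyp26 and Cyp27 genes, pseudogenes marked -ps and 2 Cyp4a genes, Cyp4a12a and Cyp4a14, were left out by the same rule. The set holds 49 Cyp2, 18 Cyp4, 9 Ugt1, 10 Ugt2 and 18 glutathione S-transferase (Gst) genes, and 5 genes that share only the letters: Cyp20a1, Cyp21a1, Cyp24a1, Cyp46a1 and the antisense gene Cyp4x1os, which are described apart. No measured value entered the rule, but the members were chosen with earlier results of these data known. At least 1 unique molecular identifier (UMI, 1 captured RNA molecule) was found for 79 of the 109 in the cells kept for analysis, 58 had at least 20 UMIs, and 23 had at least 1000. For 26 members no UMI was found in any deposited barcode, among them Cyp2c29, Cyp2c37 and Cyp2a12, which mouse liver is known for.

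Foreign compounds, steroids and lipid mediators are cleared in steps. Cytochrome P450 enzymes of the Cyp2 family oxidise drugs, steroids and arachidonic acid, those of the Cyp4 family hydroxylate fatty acids at the end of the chain, UDP-glucuronosyltransferases (Ugt) attach glucuronic acid, and glutathione S-transferases attach glutathione. In the kidney the proximal tubule is the main site of these enzymes, and in rodents several of them are known to differ between the sexes there.

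The series holds 3 single-cell RNA libraries of kidney glomerular preparations, 1 mouse each. The groups are a male and a female RPC-ERαKO mouse, named female ERaKO here, and a female. All are healthy C57Bl/6 mice with the alleles Pax2.rtTA, TetO.Cre and R26.Confetti, in which doxycycline switches on Cre recombinase in cells that use the Pax2 promoter. The female ERaKO mouse carries the ERalphaKO allele in addition. Doxycycline was given at 20 days and the mice were taken at 90 days. The material is labelled as all cells of the glomerulus. Each library was made from a suspension of 95% viable cells with the 10x Chromium 3′ kit. With 1 mouse a group, no difference has a replicate check: no p-value is given, and sex or genotype cannot be told apart from the mouse, the preparation and the library. Intervals cover counting error only.

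The libraries held 4244 male, 3986 female ERaKO and 3555 female barcodes, with 44585342, 47522141 and 44942380 UMIs. After filters 3221 male, 2523 female ERaKO and 2823 female cells remained, with a median of 7325, 8125 and 8827 UMIs. Mitochondrial RNA above 25% removed 20.97% of male, 34.0% of female ERaKO and 17.7% of female barcodes. Pairs of libraries shared 4 to 8 barcode sequences. Clusters were named from marker genes, as podocyte-like, proximal-tubule-like and so on, and are called by the cell type alone from here on. The members were left out of the genes used for clustering. Of the targeted gene Esr1, proximal tubule cells held 13 UMIs in male, 68 in female ERaKO and 8 in female, at 7.32, 22.8 and 4.64 CPM (counts per 1000000). Which part of Esr1 is deleted is not given in the sources used here, so a 3′ tag does not check the genotype.

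Levels are CPM, the summed UMIs of a gene per 1000000 UMIs of its cell class and library, and a value is given only where the class had at least 30 cells in the library. Proximal tubule cells numbered 123 in male, 185 in female ERaKO and 90 in female, which was 3.82%, 7.33% and 3.19% of kept cells. They formed clusters 16, 17 and 19. All 10 proximal tubule markers were at least 2-fold up in clusters 16 and 17, and 5 of the 10 in cluster 19. As this is a glomerular preparation, these are tubule cells that came with it. The members summed to 5106 CPM in male, 4585 in female ERaKO and 4301 in female proximal tubule cells, the highest sums of any class. Parietal epithelial cells, the outer layer around the glomerulus, had 4090 CPM in male, 4166 in female ERaKO and 3886 in female. Endothelial cells had 1457, 1348 and 1570 CPM in the same order. Podocytes, the filter cells of the glomerulus, had the sums 505 CPM in male, 490 in female ERaKO and 464 in female. The spread between the libraries was thus small beside the spread between the cell types.

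**Figure D1:**
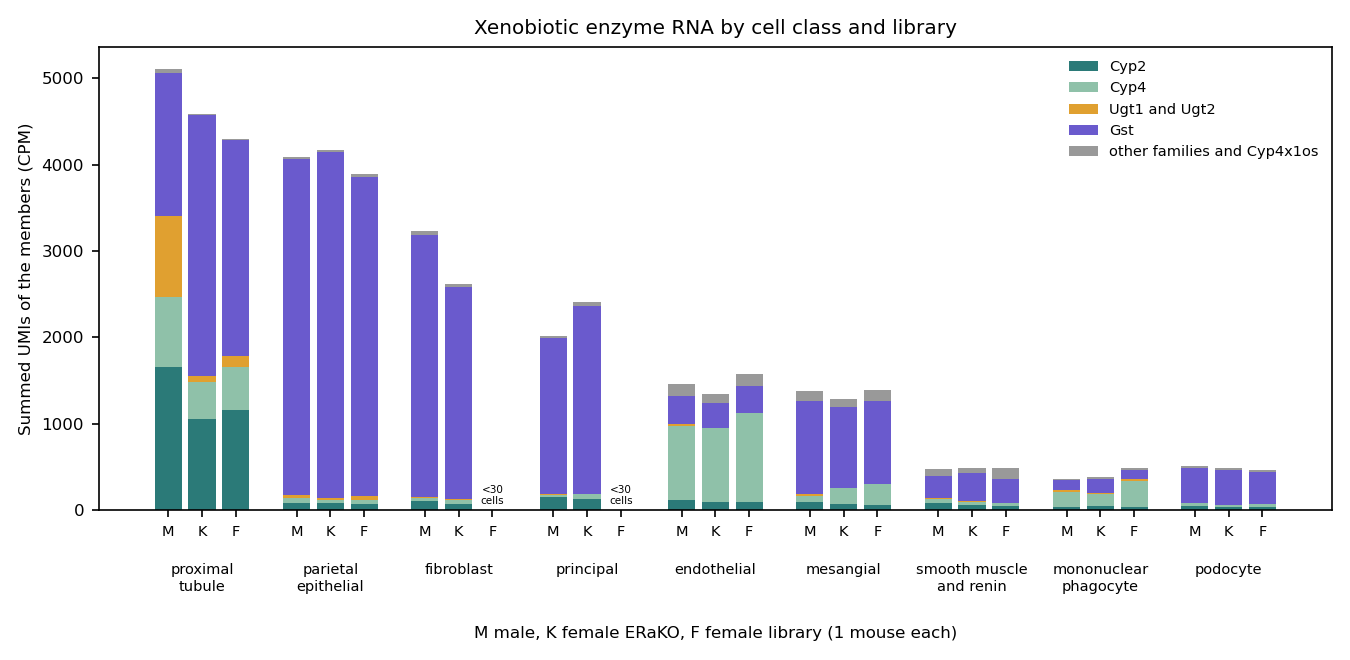
Stacked bars give the summed CPM of the members by family in 9 cell classes, in the male (M), female ERaKO (K) and female (F) library; bars of fewer than 30 cells are left out. Proximal tubule cells reached 5106 CPM in male, 4585 in female ERaKO and 4301 in female, and podocytes 505, 490 and 464.

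The families made up the proximal tubule sum in different parts. Ugt2 genes gave 896 CPM in male, 8.71 in female ERaKO and 62.1 in female cells. Gst genes gave 1652 CPM in male, 3029 in female ERaKO and 2501 in female. Cyp2 genes gave 1653 CPM in male, 1054 in female ERaKO and 1156 in female. Cyp4 genes of the set gave 809 CPM in male, 432 in female ERaKO and 501 in female. This is not the sum of the whole Cyp4 family, since Cyp4a12a and Cyp4a14 were left out. Cyp4a14 was among the 10 genes most raised in tubule cluster 17. So the male sum was built mostly of P450 and Ugt2 RNA, and the sums of both other libraries mostly of Gst RNA. Ugt1 genes gave 48.4 CPM in male, 52.9 in female ERaKO and 62.7 in female.

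The class in which a member stood highest differed between members. Of 56 members with at least 20 UMIs in the 14 classes together, 23 were highest in proximal tubule cells, 19 of them in every library. Parietal epithelial cells led for 6, endothelial cells for 4, mononuclear phagocytes for 4, principal cells for 4 and podocytes for 1. A cluster of cell cycle genes, described in the closing section, led for 5. For 40 of the 56 the highest class was the same in every library that had a value for it. Distal convoluted tubule cells had a value in male alone, so Cyp2j6 and Cyp4f13 count among the 40 from 1 library. Some highest levels were low, down to a mean of 0.467 CPM for Gstp2 in endothelial cells.

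**Figure D2:**
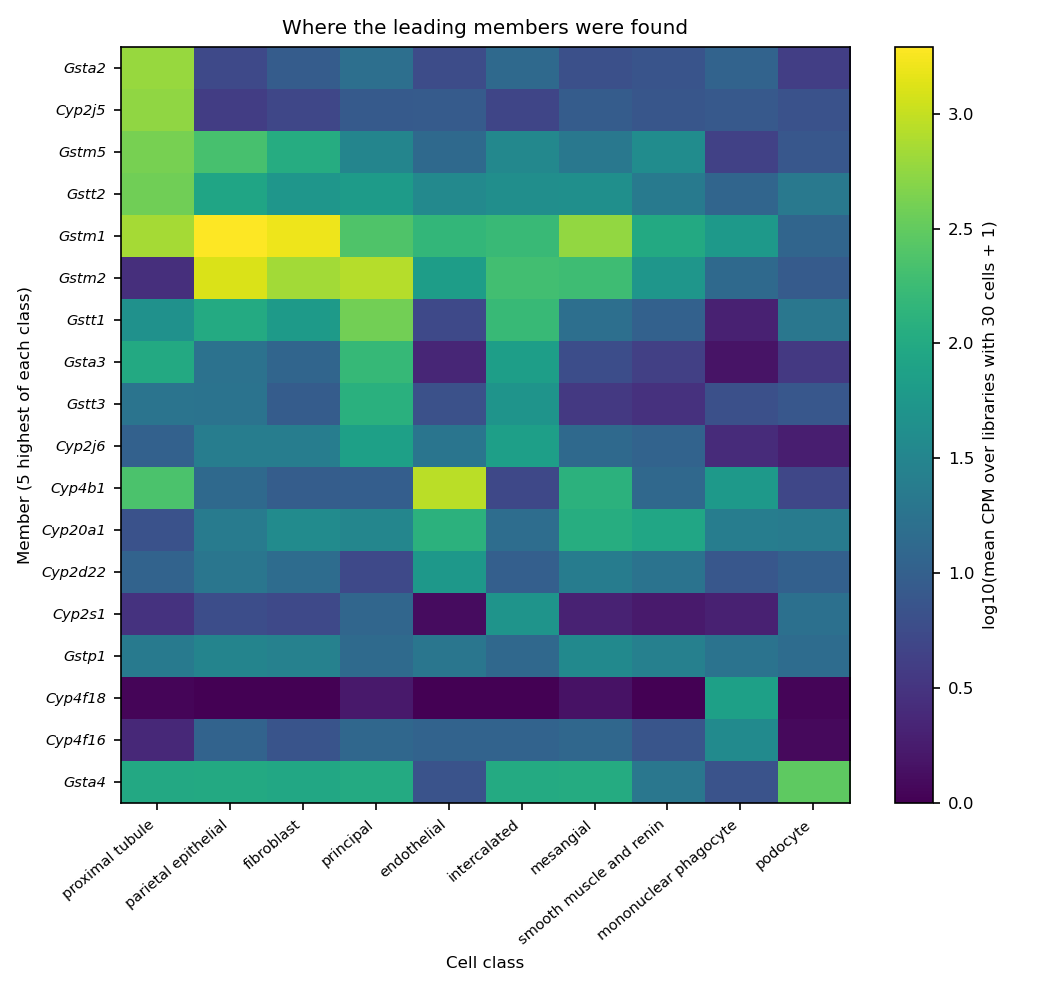
The heat map shows log10 of mean CPM plus 1, over libraries with at least 30 cells, for the 5 highest members of each of 10 cell classes. Gstm1 and Gstm2 lead in parietal epithelial cells, Cyp4b1 in endothelial cells, Gsta4 in podocytes and Cyp4f18 in mononuclear phagocytes.

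The glomerular cell types differed in their leading members. In podocytes Gsta4, a transferase for the lipid peroxidation product 4-hydroxynonenal, stood at 299.6 CPM in male, 310 in female ERaKO and 273 in female. It was found in 84.4% of male, 84.7% of female ERaKO and 86.3% of female podocytes. No other member passed 24.4 CPM there: Gstt1 reached that level in male, and Cyp20a1 stood at 21.1 CPM in male, 24.0 in female ERaKO and 21.9 in female. Gsta4 thus made up most of the podocyte sum in every library.

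In endothelial cells the leading member was Cyp4b1, a Cyp4 enzyme that hydroxylates fatty acids and activates some plant toxins. It stood at 823 CPM in male, 828 in female ERaKO and 988 in female, in 95.5%, 96.3% and 97.4% of the cells. Gstm1, a mu-class transferase, followed with 165 CPM in male, 140 in female ERaKO and 146 in female. Cyp20a1, a P450 of unknown substrate and not of the Cyp2 family, had 136 CPM in male, 115 in female ERaKO and 135 in female. Cyp4b1 was therefore abundant in the named endothelial class of all libraries, while in proximal tubule cells it was abundant in 1 of them, as shown further on. The class leaves out cluster 3 (624 cells, with Sox17 and Cd93), whose best marker match was endothelial but too weak for a name. Cells left unnamed numbered 444 in male, 377 in female ERaKO and 379 in female, cluster 3 among them. All Cyp4 members together had 139, 146 and 133 CPM in these unnamed cells.

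Parietal epithelial cells were led by mu-class transferases. Gstm1 had 1996 CPM in male, 1997 in female ERaKO and 1855 in female. Gstm2 had 1265 CPM in male, 1357 in female ERaKO and 1184 in female. In proximal tubule cells Gstm2 was near absent, with 3 UMIs in male, 9 in female ERaKO and 1 in female, or 1.69, 3.02 and 0.580 CPM. Gstm5 was shared by these epithelia, with 220 CPM in male, 189 in female ERaKO and 231 in female parietal cells, and 368, 484 and 400.5 CPM in proximal tubule cells of the same libraries. Mesangial cells, the contractile cells of the tuft, had 660 CPM of Gstm1 in male, 503 in female ERaKO and 528 in female. Fibroblasts had 1838 CPM of Gstm1 in male and 1381 in female ERaKO; the female library had too few of them for a value.

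Of the collecting duct, principal cells held Gstm2 at 760 CPM in male and 934 in female ERaKO, and the theta-class transferase Gstt1 at 373 CPM in male and 393 in female ERaKO. Intercalated cells held Cyp2s1 at 54.1 CPM in male, 58.5 in female ERaKO and 36.8 in female.

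Cyp4f18, which hydroxylates the neutrophil attractant leukotriene B4, was found in mononuclear phagocytes alone at more than 1 UMI in a library. Its level there was 85.6 CPM in male (95% interval 64.6 to 111), 2.78 in female ERaKO (0.0704 to 15.5) and 134 in female (107 to 165). Of 90 male phagocytes 36 held a UMI, of 48 female ERaKO phagocytes 1, and of 70 female phagocytes 33, with a median of 6486, 6504 and 8524.5 UMIs a cell. In 492 male, 245 female ERaKO and 456 female endothelial cells none was found. The female ERaKO phagocytes thus stood far from both other libraries. Whether they were the same kinds of phagocyte was not tested.

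In proximal tubule cells the male mouse is compared with the female mouse. Sex cannot be told apart here from the mouse, the library and the makeup of the class, which is given further on. A gene was counted as measured with at least 20 UMIs over both libraries compared, and as higher or lower from 1.5-fold on, on the scale log2(CPM + 1). Of 35 measured members, 11 were higher in male cells, where the share of all 9147 measured genes was 21.7%. 13 were lower, where the share of all genes was 10.5%. The median log2 ratio of the members was −0.25, against 0.20 over all measured genes. Scaling by trimmed means or by median ratios moved the median of all genes by −0.20 and −0.19 and gave 10 members higher and 14 lower; no named member changed direction.

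**Figure D3:**
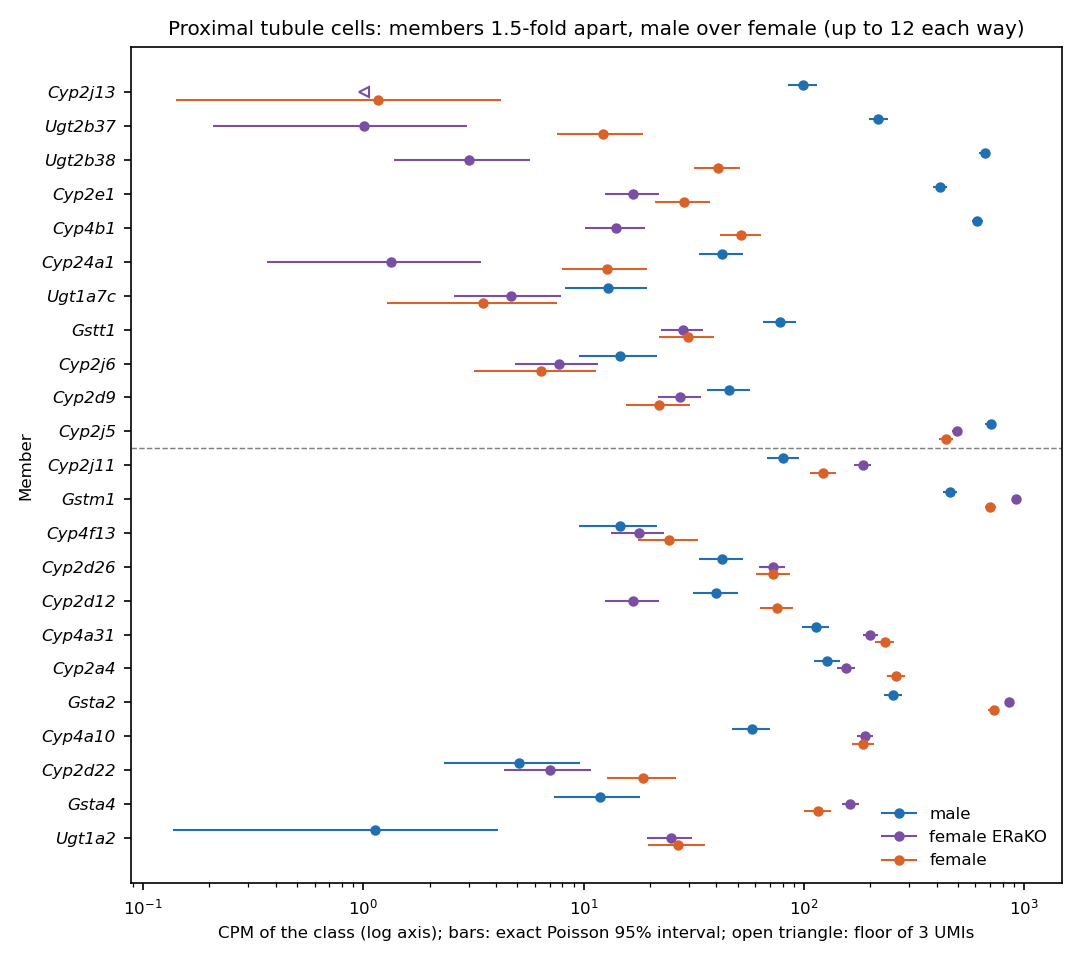
Points give the CPM of named members in male, female ERaKO and female proximal tubule cells on a log axis, with exact Poisson 95% intervals; an open triangle marks the floor of 3 UMIs where none was found. Above the dashed line are the 11 members higher in male, from Cyp2j13 at 99.1 CPM in male and 1.16 in female, and beneath it those lower in male, to Ugt1a2 at 1.13 CPM in male and 26.7 in female.

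The start sites of the 2 members at each end of this order that had an entry are shown for the reader to compare. Each runs from 250 bases before to 50 bases after the start, from RefSeq on GRCm38.p6, on the gene's own strand. Capitals mark AGAACA, a core of the glucocorticoid response element. Cyp2j13 lies at chr4:96077491-96077790 (minus strand), Ugt2b37 at chr5:87254739-87255038 (minus strand), Ugt1a2 at chr1:88200361-88200660 (plus strand) and Gsta2 at chr9:78347096-78347395 (minus strand).
Cyp2j13: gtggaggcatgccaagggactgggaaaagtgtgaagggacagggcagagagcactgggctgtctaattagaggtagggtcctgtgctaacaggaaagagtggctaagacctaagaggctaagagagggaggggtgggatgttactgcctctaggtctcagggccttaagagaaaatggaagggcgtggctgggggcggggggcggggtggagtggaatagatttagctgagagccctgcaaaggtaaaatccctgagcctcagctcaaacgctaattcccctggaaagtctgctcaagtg
Ugt2b37: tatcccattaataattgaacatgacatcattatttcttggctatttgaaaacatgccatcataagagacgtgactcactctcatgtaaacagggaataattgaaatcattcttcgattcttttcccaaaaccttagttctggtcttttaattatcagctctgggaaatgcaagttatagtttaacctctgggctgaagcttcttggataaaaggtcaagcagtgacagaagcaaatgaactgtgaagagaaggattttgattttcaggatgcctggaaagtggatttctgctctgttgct
Ugt1a2: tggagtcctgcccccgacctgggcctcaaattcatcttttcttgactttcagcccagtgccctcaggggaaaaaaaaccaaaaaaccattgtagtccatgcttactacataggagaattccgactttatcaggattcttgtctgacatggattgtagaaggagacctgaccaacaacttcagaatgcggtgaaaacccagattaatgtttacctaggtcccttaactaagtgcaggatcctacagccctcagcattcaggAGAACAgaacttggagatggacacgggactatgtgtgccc
Gsta2: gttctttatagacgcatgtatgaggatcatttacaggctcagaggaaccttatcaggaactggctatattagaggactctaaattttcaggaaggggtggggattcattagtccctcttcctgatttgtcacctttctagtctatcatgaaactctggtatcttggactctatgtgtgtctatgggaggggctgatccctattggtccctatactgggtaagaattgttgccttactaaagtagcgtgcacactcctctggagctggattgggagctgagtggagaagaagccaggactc

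4 motifs were searched in these windows on both strands: GTTAAT (part of the HNF1 element), CAAAGTCCA (HNF4 core), AGAACA and TGACNNNGC (antioxidant response element). Ugt1a2 held AGAACA at bases 261 to 266 of its window, and the other windows held none of the 4. AGAACA was found in 25.2% of the 103 promoters of 91 member genes and in 18.98% of all 32841 promoters of the table. GTTAAT was found in 15.5% of member promoters and in 7.10% of all. TGACNNNGC was found in 8.74% of member promoters and in 12.4% of all. CAAAGTCCA was found in 5.83% of member promoters, 6 promoters of Cyp2c genes, and in 0.475% of all. A match is only a run of letters, and no match says nothing of a factor.

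Among Cyp2 genes the widest gap was at Cyp2j13, whose subfamily makes epoxides of arachidonic acid. It had 99.1 CPM in male, none in female ERaKO and 1.16 in female cells, from 176, 0 and 2 UMIs, a log2 ratio of 5.53 for male over female (4.54 to 9.47). Of male cells 56.1% held a UMI, of female cells 2.22%. Its neighbour Cyp2j5, the main renal epoxygenase of the subfamily in mice, had 705 CPM in male, 493 in female ERaKO and 443 in female, a log2 ratio of 0.67 (0.54 to 0.80). Cyp2j11 ran the other way, with 80.5 CPM in male, 185 in female ERaKO and 122 in female, a log2 ratio of −0.60 (−0.92 to −0.29). The Cyp2j genes thus differed in direction within 1 block of 8 members on chromosome 4 (96027534 to 96664154, GENCODE M21 on GRCm38), of which 5 were measured, 3 higher and 1 lower in male.

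Cyp2e1, which oxidises ethanol and acetone, had 415 CPM in male, 16.8 in female ERaKO and 28.4 in female cells, a log2 ratio of 3.82 for male over female (3.45 to 4.32). A UMI was found in 72.4% of male, 15.1% of female ERaKO and 26.7% of female cells. Of its 3′ end, 15.2% of windows of 60 bases also occur in other genes. Cyp2d9, a testosterone hydroxylase of male mouse liver, had 45.6 CPM in male, 27.5 in female ERaKO and 22.1 in female, a log2 ratio of 1.02 (0.48 to 1.64). Of the 3′-end windows of Cyp2d9, 14.1% also occur in other genes. Cyp2j6 had 14.6 CPM in male, 7.71 in female ERaKO and 6.38 in female, a log2 ratio of 1.08 (0.13 to 2.36).

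Other Cyp2 genes were lower in male. Cyp2a4, a steroid 15α-hydroxylase, had 127 CPM in male, 156 in female ERaKO and 261 in female, a log2 ratio of −1.03 (−1.27 to −0.80). Cyp2d12 had 39.99 CPM in male, 16.8 in female ERaKO and 75.5 in female, a log2 ratio of −0.90 (−1.35 to −0.49), and 46.5% of its male UMIs lay in 1 cell. Cyp2d22 had 5.07 CPM in male, 7.04 in female ERaKO and 18.6 in female, a log2 ratio of −1.69 (−3.13 to −0.77). Cyp2d26 had 42.2 CPM in male, 72.0 in female ERaKO and 72.6 in female, a log2 ratio of −0.77 (−1.21 to −0.36), with 25.3% of the male UMIs in 1 cell. Of the 3′-end windows, 29.0% of those of Cyp2a4 and 19.3% of those of Cyp2d26 also occur in other genes. Among the Cyp2d genes of chromosome 15 (82370527 to 82794294) 4 of 8 were measured, 1 higher and 3 lower in male. Both measured members of the Cyp2a and Cyp2b block on chromosome 7 were lower in male. The 14 Cyp2c genes that lie together on chromosome 19 (39007019 to 40187333) were not measured in any comparison, while Cyp2c23, an arachidonic acid epoxygenase of rat kidney that lies apart, had 23.1 CPM in male, 50.9 in female ERaKO and 29.0 in female.

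Within the Cyp4 family neighbours on chromosome 4 (115106323 to 115647723) stood on opposite sides. Cyp4b1 had 613 CPM in male, 14.1 in female ERaKO and 51.7 in female cells, a log2 ratio of 3.54 for male over female (3.26 to 3.90). The fatty acid omega-hydroxylase Cyp4a10 had 58.0 CPM in male, 189 in female ERaKO and 186 in female, a log2 ratio of −1.66 (−2.01 to −1.35). Cyp4a31 had 113 CPM in male, 200 in female ERaKO and 232 in female, a log2 ratio of −1.03 (−1.29 to −0.79). Cyp4f13 on chromosome 17 had 14.6 CPM in male, 17.8 in female ERaKO and 24.4 in female, with an interval of the log2 ratio that reached 0.

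The Ugt2 genes with the most UMIs, Ugt2b37 and Ugt2b38, lie on chromosome 5 and were higher in male cells. Members of this subfamily glucuronidate steroids and other hydroxylated compounds. Ugt2b38 had 663 CPM in male, 3.02 in female ERaKO and 40.6 in female, from 1178, 9 and 70 UMIs, a log2 ratio of 3.997 for male over female (3.68 to 4.399). Ugt2b37 had 218 CPM in male, 1.01 in female ERaKO and 12.2 in female, a log2 ratio of 4.05 (3.53 to 4.87). All 21 female UMIs of Ugt2b37 lay in 1 cell, as did 37.1% of those of Ugt2b38, so the typical female cell was lower than the class value. With each library clustered on its own the ratio of Ugt2b37 was 0.45, under 1.5-fold, and that of Ugt2b38 was 3.51. Ugt2b34 in the same block had 11.3 CPM in male, 4.69 in female ERaKO and 9.29 in female, a log2 ratio of 0.25 (−0.74 to 1.32).

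Ugt1a genes are spliced from a first exon of their own onto shared last exons, so that all windows of the annotated 3′ end of Ugt1a2 also occur in other Ugt1a genes and the split of UMIs among them is uncertain. As listed, Ugt1a2 had 1.13 CPM in male, 24.8 in female ERaKO and 26.7 in female cells, a log2 ratio of −3.70 for male over female (−7.66 to −2.63). Ugt1a7c went the other way with 12.95 CPM in male, 4.69 in female ERaKO and 3.48 in female, a log2 ratio of 1.64 (0.56 to 3.48). The Ugt1 sum differed less than either gene.

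Of the glutathione S-transferases of the alpha class, Gsta2 and Gsta4 were lower in male cells and Gsta3 was not. Gsta2 had 255 CPM in male, 854 in female ERaKO and 728 in female, a log2 ratio of −1.51 for male over female (−1.67 to −1.36). A UMI of Gsta2 was found in 57.7% of male, 99.5% of female ERaKO and 93.3% of female cells. Gsta4, the leading member of podocytes, had 11.8 CPM in male, 162 in female ERaKO and 116 in female tubule cells, a log2 ratio of −3.19 (−4.02 to −2.64). Gsta3, on another chromosome, had 109 CPM in male, 111 in female ERaKO and 79.5 in female, a log2 ratio of 0.45 (0.13 to 0.78), under 1.5-fold. Of Gsta2, 39.7% of 3′-end windows are shared with Gsta1 and other copies, and Gsta1 itself had 0 UMIs in male, 4 in female ERaKO and 1 in female.

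The mu and theta classes differed less. Gstm1 had 460 CPM in male, 918 in female ERaKO and 702 in female, a log2 ratio of −0.61 (−0.74 to −0.48). Gstt1 had 77.7 CPM in male, 28.1 in female ERaKO and 29.6 in female, a log2 ratio of 1.36 (0.92 to 1.89). Gstt2 had 319 CPM in male, 409 in female ERaKO and 390 in female, and stayed under 1.5-fold. Gstt3 alone lay within 1.2-fold in both comparisons, with 18.0 CPM in male, 16.8 in female ERaKO and 17.4 in female. Outside the families, Cyp24a1, the vitamin D 24-hydroxylase, had 42.2 CPM in male, 1.34 in female ERaKO and 12.8 in female, a log2 ratio of 1.65 (1.02 to 2.48); 24.0% of its male and 54.5% of its female UMIs lay in 1 cell each. Cyp20a1 had 4.51 CPM in male, 7.71 in female ERaKO and 5.22 in female tubule cells. Cyp21a1, Cyp46a1 and Cyp4x1os were not measured there.

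The strongest of these differences were present at equal depth too. Median depth was 11921 UMIs a cell in male, 11793 in female ERaKO and 15198 in female tubule cells, and mitochondrial RNA took 12.2%, 14.5% and 15.98% of their UMIs; the part of the mitochondrial share in the values was not tested. With each cell thinned to 4000 UMIs, Cyp2j13 was found in 27.6% of male, no female ERaKO and 1.11% of female cells. Ugt2b38 was found in 70.7% of male, 1.62% of female ERaKO and 8.89% of female cells. Gsta2 was found in 39.0% of male, 83.8% of female ERaKO and 81.1% of female cells. At this depth Cyp2j6 turned round, to a log2 ratio of −1.26. Some smaller differences turned round under other settings: with stricter filters (at least 1000 genes and at most 10% mitochondrial RNA, 64 male and 20 female cells) Cyp2j6 had a log2 ratio of −0.19, Cyp2d9 of −0.60 and Cyp2j5 of −0.09, and with each library clustered on its own Cyp24a1 had −0.09, Cyp2a4 0.09, Cyp2d12 0.21 and Cyp2j11 0.43. In that clustering Cyp4a10 had −0.67 and Gsta2 −0.92, smaller gaps than in the class as given.

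The libraries held different tubule cells, so the class sums mix levels within cells with the makeup of the class, which cannot be told apart in the sums. Cluster 16, with Slc7a13 and Miox, had 99 male, 37 female ERaKO and 3 female cells. Cluster 19, with Slc7a12 and Slc22a7, had 1 male, 86 female ERaKO and 39 female cells. Cluster 17, with Slc34a1, Slc22a8 and Pck1, had 23 male, 62 female ERaKO and 48 female cells and is the one cluster that all libraries filled with at least 10 cells. Values in clusters are given from 10 cells on. Within cluster 17, 8 of 29 measured members were higher in male, where the share of all genes was 18.1%, and 18 were lower, where it was 19.1%. The median log2 ratio in cluster 17 was −0.83 for the members and 0.04 for all genes.

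In cluster 17 the strongest male excesses were present too. Ugt2b38 had 832 CPM in male, 11.4 in female ERaKO and 96.4 in female cells of cluster 17. Ugt2b37 had 466 CPM in male, 4.28 in female ERaKO and 30.2 in female. Cyp2j13 had 51 UMIs in male and none in either other library. Cyp2e1 had 203 CPM in male, 49.9 in female ERaKO and 70.5 in female, a log2 ratio of 1.51 for male over female (1.01 to 2.05), well under that of the whole class. Cyp4b1 had 279 CPM in male, 45.7 in female ERaKO and 125 in female, a log2 ratio of 1.15 (0.75 to 1.56). The excess of Gstt1 was smaller too, with a log2 ratio of 0.43 (−0.21 to 1.07), against 1.36 in the whole class.

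The deficits in male were as large or larger within cluster 17 for Cyp4a and Gsta2. Cyp4a10 had 13.1 CPM in male, 342 in female ERaKO and 354 in female, a log2 ratio of −4.66 (−6.22 to −3.62). Cyp4a31 had 54.4 CPM in male, 248 in female ERaKO and 335 in female. Gsta2 had 261 CPM in male, 1164 in female ERaKO and 1216 in female, a log2 ratio of −2.21 (−2.51 to −1.94). Gsta4 had 32.7 CPM in male, 158 in female ERaKO and 102 in female. Its log2 ratio of −1.62 (−2.56 to −0.83) was a smaller gap than the −3.19 of the whole class. Cyp2d12 had 0 UMIs in male, 46 in female ERaKO and 130 in female. The segment marker Slc5a2 also differed within cluster 17, with 740 CPM in male, 84.2 in female ERaKO and 95.0 in female, so its cells were not alike in the 3 libraries, and the part of this in the values above was not tested. In cluster 16, where 99 male and 37 female ERaKO cells can be set side by side, Gsta2 had 258 CPM in male and 3002 in female ERaKO, and Cyp4b1 had 746 CPM in male and 9.71 in female ERaKO. Cyp4a10 did not share this, with 69.2 CPM in male and 71.2 in female ERaKO cells of cluster 16.

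**Figure D4:**
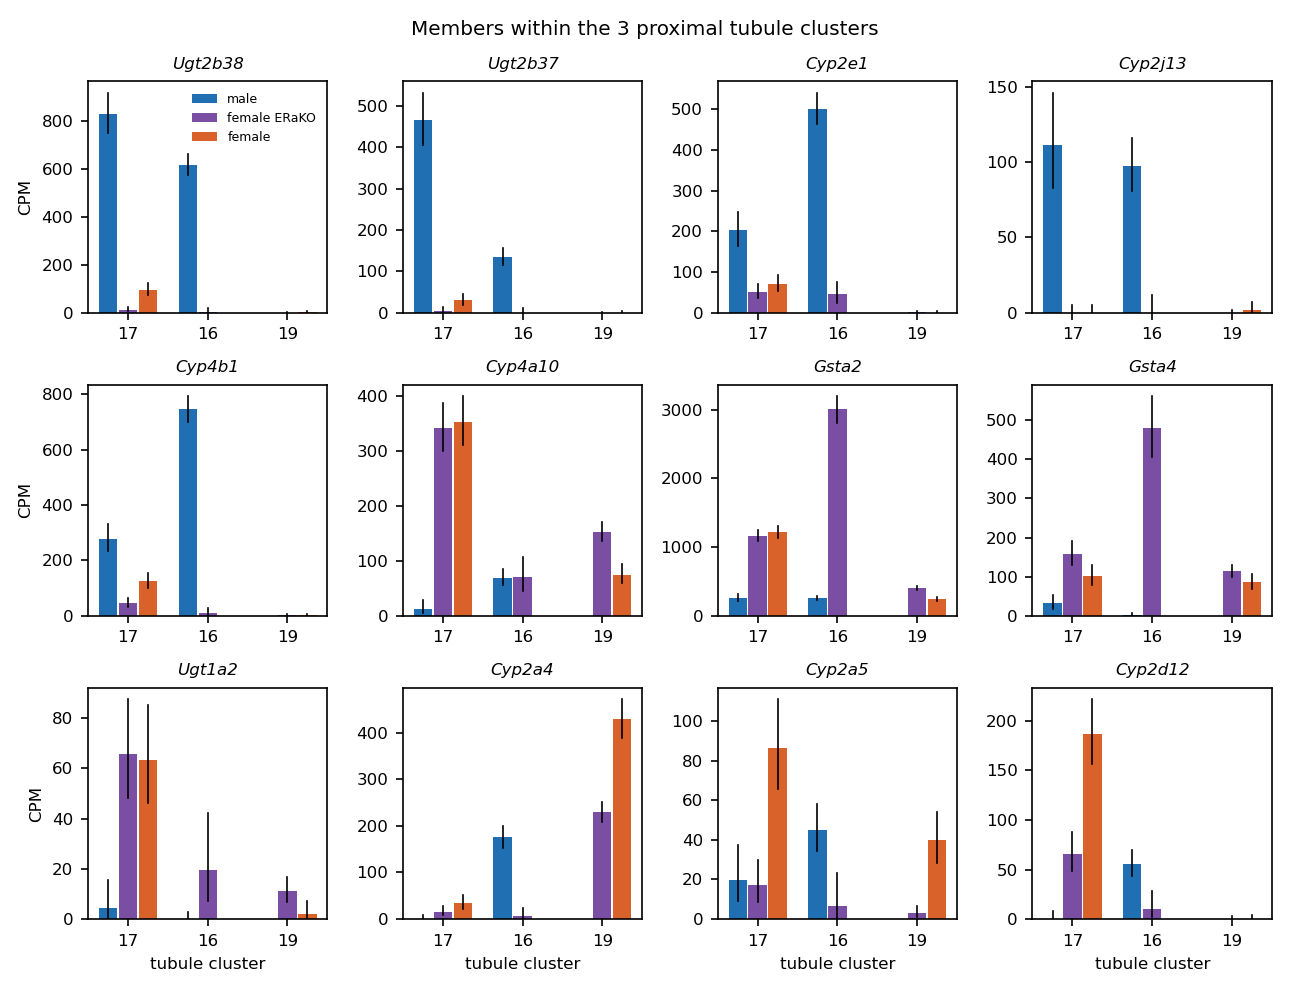
Bars give the CPM of 12 members within tubule clusters 17, 16 and 19 by library, with exact Poisson 95% intervals; groups of fewer than 10 cells are not drawn. In cluster 17 Ugt2b38 stands at 832 CPM in male, 11.4 in female ERaKO and 96.4 in female, and Cyp4a10 at 13.1, 342 and 354.

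The barcodes left out for high mitochondrial RNA, 890 male, 1355 female ERaKO and 631 female, were counted on their own, all cell types together and per 1000000 UMIs that are not mitochondrial. Ugt2b38 had 336 CPM in male, 45.4 in female ERaKO and 27.2 in female. Gsta2 had 41.4 CPM in male, 394 in female ERaKO and 286 in female. Cyp4a10 had 24.4 CPM in male, 161 in female ERaKO and 174 in female. Gsta4 did not differ there, with 125 CPM in male, 143 in female ERaKO and 133 in female. These barcodes hold other cell types too, among them podocytes, whose share was not measured.

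The female ERaKO mouse is compared with the female, where the ERalphaKO allele cannot be told apart from the mouse and the library. This comparison shares the female library with the one above. Of 37 measured members in proximal tubule cells, 4 were higher in female ERaKO, where the share of all 9547 measured genes was 9%, and 11 were lower, where that share was 10.3%. The median log2 ratio was −0.07 for the members and 0.04 for all measured genes.

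**Figure D5:**
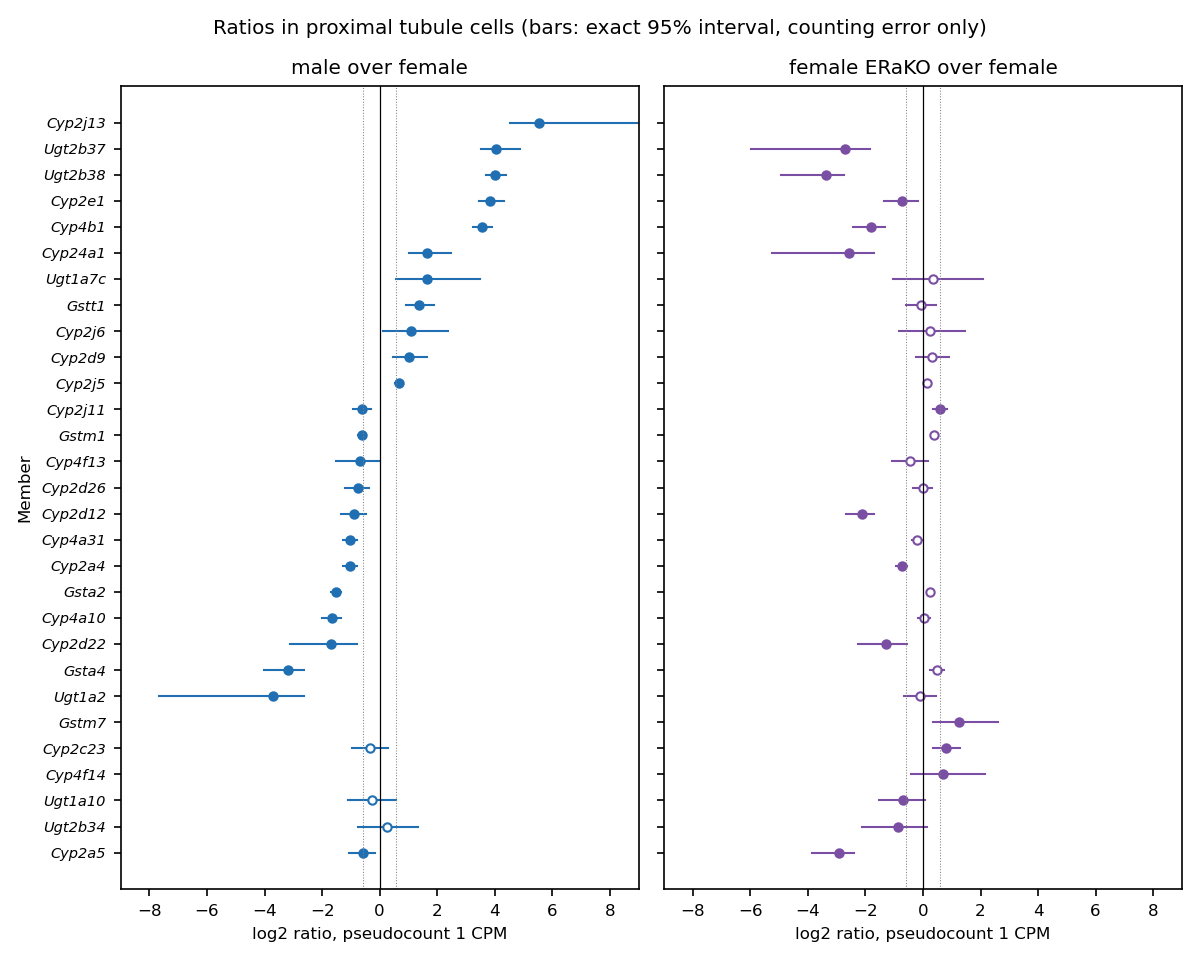
Each point is the log2 ratio of a member in proximal tubule cells, male over female on the left and female ERaKO over female on the right, with exact 95% intervals; filled points are at least 1.5-fold apart, dotted lines mark 1.5-fold, and the interval of Cyp2j13 runs past the axis. Ugt2b38 stands at 3.997 on the left and −3.37 on the right, and Cyp4a10 at −1.66 and 0.03.

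Several members with high male levels had lower class sums in female ERaKO than in female cells. The log2 ratio of female ERaKO over female was −3.37 for Ugt2b38 (−4.94 to −2.75), −2.72 for Ugt2b37 (−5.99 to −1.86), −1.80 for Cyp4b1 (−2.44 to −1.33) and −0.73 for Cyp2e1 (−1.36 to −0.17). The female values of Ugt2b37 rest on 1 cell, and without the highest cell of each library its ratio was 0.42. In cluster 19 alone the ratio was 0.58 for Cyp4b1 and 0.59 for Cyp2e1, and with each library clustered on its own that of Cyp2e1 was 1.26. In the barcodes left out for high mitochondrial RNA, Ugt2b38 was higher in female ERaKO than in female, as given above. The members with lower male levels were mixed. For some the log2 ratio of female ERaKO over female was small. It was 0.03 for Cyp4a10 (−0.17 to 0.23), 0.23 for Gsta2 (0.13 to 0.33) and 0.48 for Gsta4 (0.24 to 0.73). Others were past 1.5-fold: Cyp2a5 at −2.92, Cyp2d12 at −2.11, Cyp2d22 at −1.28, Cyp2a4 at −0.74 and Cyp2j11 at 0.59. The rest of the members lower in male were under 1.5-fold.

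Among the members lower in male, the widest gap between female ERaKO and female was at Cyp2a5, the coumarin 7-hydroxylase. It had 37.7 CPM in male, 6.70 in female ERaKO and 57.5 in female cells, a log2 ratio of −2.92 for female ERaKO over female (−3.87 to −2.40). It was lower in female ERaKO in both clusters that hold female cells in number. In cluster 17 Cyp2a5 had 17.1 CPM in female ERaKO and 86.3 in female, and in cluster 19 it had 3.04 CPM in female ERaKO and 39.7 in female. Of the 3′-end windows of Cyp2a5, 8.39% also occur in its neighbour Cyp2a4, and 29.0% of those of Cyp2a4 also occur in Cyp2a5. The split of UMIs between these genes is thus uncertain. Cyp2a4 had 229 CPM in female ERaKO and 429 in female cells of cluster 19. Over the whole class the log2 ratio of Cyp2a4 was −0.74 (−0.94 to −0.56).

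Cyp2d12 had a log2 ratio of −2.11 for female ERaKO over female (−2.67 to −1.69), Cyp24a1 of −2.56 (−5.25 to −1.69) and Cyp2d22 of −1.28 (−2.27 to −0.56). Ugt2b34 had −0.85 (−2.13 to 0.14) and Ugt1a10 −0.69 (−1.54 to 0.06), both with intervals that include 0. Higher in female ERaKO were Gstm7 at 1.24 (0.33 to 2.62), Cyp2c23 at 0.79 (0.34 to 1.30), Cyp4f14 at 0.68 (−0.41 to 2.16) and Cyp2j11 at 0.59 (0.36 to 0.83). In cluster 19 alone Cyp2c23 had 27.3 CPM in female ERaKO and 4.07 in female. In cluster 19 alone 10 of 23 measured members were higher in female ERaKO, where the share of all genes was 16.7%, and 2 were lower, where it was 7.25%. The counts of this comparison thus moved with the tubule cells taken.

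In podocytes 7 of 27 measured members were at least 1.5-fold apart between male and female, against 3.88% of all genes, and 8 of 25 between female ERaKO and female, against 6.57%. Most of these are members that stand high in proximal tubule cells. Ugt2b38 had 8.19 CPM in male, 0.696 in female ERaKO and none in female podocytes, from 88, 5 and 0 UMIs, at least 43.6-fold higher in male than 3 UMIs in the female library would be. Cyp4b1 had 10.0 CPM in male, 1.11 in female ERaKO and 0.877 in female podocytes. Cyp2e1 had 5.49 CPM in male, 0.418 in female ERaKO and 0.501 in female. Gsta2 had 0.930 CPM in male, 5.57 in female ERaKO and 2.63 in female.

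RNA of tubule genes was present at a low level in podocytes as a whole. A set of 12 proximal tubule genes that podocytes should lack stood at 0.826% of its tubule level in male, 1.53% in female ERaKO and 0.577% in female podocytes. Of the tubule level in the same library, male podocytes had 1.23% of Ugt2b38, 1.64% of Cyp4b1 and 1.32% of Cyp2e1. These male shares were above the 0.826% of the 12 genes. The part of free tubule RNA in these levels was not tested, so they are not read here as podocyte expression. All 12 genes were at least 1.5-fold higher in female ERaKO than in female podocytes, and 8 of 12 in male. In female ERaKO podocytes the shares were 23.1% for Ugt2b38, from 5 UMIs in podocytes and 9 in tubule cells, 7.92% for Cyp4b1 and 2.49% for Cyp2e1. Other members stood above their tubule level in podocytes of every library, among them Gsta4 and Cyp2s1. Gsta4 stood at 2533% in male, 191% in female ERaKO and 235% in female. Cyp2s1 stood at 2725%, 344% and 1050% in the same order. Its podocyte level was 15.3 CPM in male, 12.7 in female ERaKO and 18.3 in female. In tubule cells Cyp2s1 had too few UMIs to count as measured in either comparison. Its shares are therefore uncertain, and their gaps between libraries are not read here.

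In endothelial cells 5 of 19 measured members were 1.5-fold apart between male and female, against 8.38% of all genes, and 2 of 18 between female ERaKO and female, against 11.3%. Ugt2b38 had 15.9 CPM in male, none in female ERaKO and 0.533 in female, and Cyp2e1 had 11.4 CPM in male, 1.37 in female ERaKO and 0.800 in female. Gsta2 had 1.201 CPM in male, 10.5 in female ERaKO and 2.93 in female. The 12 tubule genes stood at 1.14% of their tubule level in male, 1.48% in female ERaKO and 0.632% in female endothelial cells, and of the tubule level in the same library male cells had 2.40% of Ugt2b38 and 2.75% of Cyp2e1. The part of free tubule RNA in these values was not tested. The leading endothelial members Cyp4b1, Gstm1 and Cyp20a1 were under 1.5-fold in both comparisons.

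In parietal epithelial cells 7 of 22 measured members were 1.5-fold apart between male and female, against 16.6% of all genes, and 12 of 27 between female ERaKO and female, against 16.7%. None of the leading Gst members was among them. Ugt2b34 had 4.26 CPM in male, 8.82 in female ERaKO and none in female, from 8, 37 and 0 UMIs, at least 3.07-fold higher in female ERaKO than 3 UMIs in the female library would be. This direction did not hold under other settings, with a log2 ratio of −0.53 under strict filters, −0.71 at clustering resolution 2 and −0.31 with classes assigned cell by cell. Cyp4b1 had 17.03 CPM in male, 3.10 in female ERaKO and 17.2 in female, and 55.6% of its female UMIs lay in 1 cell. Gsta2 had 0 UMIs in male, 50 in female ERaKO and 1 in female, and 44.0% of the 50 lay in 1 cell. Ugt2b37 had 9.58 CPM in male, 7.15 in female ERaKO and 20.1 in female, with 76.2% of the female UMIs in 1 cell, and without the highest cell its log2 ratio of male over female was 0.48. The 12 tubule genes stood at 9.91% of their tubule level in male, 16.7% in female ERaKO and 13.6% in female parietal cells, far above podocytes. Cyp4f16 had 7.45 CPM in male, 7.15 in female ERaKO and 16.3 in female, and Cyp4f13 13.3, 12.9 and 5.75 CPM in the same order.

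In mesangial cells, of which the female library had 51, Cyp4b1 had 42.4 CPM in male, 151 in female ERaKO and 198 in female, a log2 ratio of −2.20 for male over female (−2.71 to −1.75). It was found in 12.4% of male, 11.9% of female ERaKO and 17.6% of female cells, so a minority of cells carried it. Of its male UMIs 37.3% lay in 1 cell. Gstt1 had 15.8 CPM in male, 4.20 in female ERaKO and 24.5 in female, a log2 ratio of −2.30 for female ERaKO over female (−4.11 to −1.11). Cyp2j5 had 15.1 CPM in male, 7.204 in female ERaKO and 1.89 in female, the last from 1 UMI.

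Gstp1, the pi-class transferase, showed a difference that ran through the cell types. In podocytes it had 7.44 CPM in male, 10.9 in female ERaKO and 22.5 in female, a log2 ratio of −1.48 for male over female (−1.96 to −1.24) and of −0.99 for female ERaKO over female (−1.42 to −0.69). In endothelial cells it had 12.3 CPM in male, 16.9 in female ERaKO and 25.9 in female. In mesangial cells it had 23.02 CPM in male, 29.4 in female ERaKO and 54.7 in female. In parietal epithelial cells it had 19.2 CPM in male, 29.5 in female ERaKO and 39.3 in female, and in smooth muscle and renin cells 13.3, 26.9 and 39.3 CPM in the same order. In proximal tubule cells the libraries were closer, with 19.1 CPM in male, 21.1 in female ERaKO and 23.8 in female, and their intervals overlapped. The order male, female ERaKO, female, from low to high, held in all 9 classes with at least 30 cells in every library. Of 5840 genes with at least 20 UMIs in each of those classes 4 had this order in all 9, or 0.0685%: Gstp1, Grcc10, Gm10076 and Tsix. The gene was singled out after its values were seen, the classes of a library share that library, and 72.3% of the 3′-end windows of Gstp1 also occur in Gstp2.

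Other genes of the same pathways are given from lists, in proximal tubule cells, where 21.7% of all genes were higher and 10.5% lower in male. Of 7 measured P450 partners and other P450s, 4 were higher and 2 lower in male, with a median log2 ratio of 1.09. Por, the reductase that feeds electrons to microsomal P450s, had 118 CPM in male, 274 in female ERaKO and 315 in female, while its helper cytochrome b5, Cyb5a, had 2447 CPM in male, 1310 in female ERaKO and 1147 in female. The oxysterol hydroxylase Cyp7b1 had 166 CPM in male, 0.335 in female ERaKO and 4.06 in female. Por and Cyb5a thus stood on opposite sides in these class sums, which mix levels within cells with the makeup of the class. Cyb5b and Cyb5r3, also on this list, are not given singly.

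Of 16 measured genes of other oxidation and hydrolysis, 8 were higher and 1 lower in male, with a median log2 ratio of 0.61. The carbonyl reductase Cbr1 had 43.9 CPM in male, 940 in female ERaKO and 1013 in female. Ephx2, which hydrolyses epoxides of fatty acids, had 358 CPM in male, 101 in female ERaKO and 82.4 in female. Of 19 genes of other conjugation, 7 were higher and 5 lower, with a median of 0.08; Ugt8a had 171 UMIs in male and none in either other library. Of 7 genes of glutathione synthesis none was higher and 1 was lower, the rate-limiting Gclc, with 176 CPM in male, 317 in female ERaKO and 485 in female. Of 14 drug transporters none was higher and 7 were lower in male, with a median of −0.49, among them Abcc3 with 2.25 CPM in male, 103 in female ERaKO and 119 in female. Of 15 regulators 2 were higher and 2 lower in male, with a median of −0.04.

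The same lists are given for female ERaKO over female, where 9% of all genes were higher and 10.3% lower. Higher and lower were 1 and 1 of 6 P450 partners, 3 and 1 of 15 genes of oxidation and hydrolysis, 1 and 2 of 17 of conjugation, 1 and 1 of 7 of glutathione synthesis, 1 and 4 of 15 transporters and 2 and 3 of 15 regulators. Their median log2 ratios lay between −0.04 and 0.25, around the 0.04 of all genes.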

How the data were processed

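Single-cell RNA was measured in 3 libraries, 1 mouse each. The authors deposited filtered matrices of raw UMI counts per gene and barcode. Per the submitters' processing notes these came from Cell Ranger 6.1.2 with STAR 2.7.5a on mm10. Barcodes under 500 genes or over 25% mitochondrial counts were dropped, and barcodes with a Scrublet score above 0.2 were left out as doublets (112 male, 90 female ERaKO and 77 female), a score set after the automatic one was seen to vary. Cells of all libraries were clustered together (scanpy 1.11.5, 2000 variable genes without members, sex-chromosome and mitochondrial genes, 30 principal components, 15 neighbours, Leiden resolution 1) and named by marker lists. Counts were summed per class and library and given as CPM. Ratios are log2(CPM + 1), from 20 UMIs over both libraries on; their 95% intervals are exact, conditional on the summed counts, hold no pseudocount, and cover counting error only. The depth was 44585342 to 47522141 UMIs a library. No test between groups was made, since each group is 1 library. Named genes are the members past 1.5-fold with the largest ratios, up to 12 per direction in proximal tubule cells and 5 in podocytes, parietal epithelial and endothelial cells; further members are named to complete a gene family. The members and lists were chosen with earlier results of these data known. Positions are from GENCODE M21 and promoters from RefSeq, both on GRCm38. A 3′ end was compared by its last 500 bases in windows of 60. The ratio code was tested on simulated data. Alternatives were other scalings (trimmed means from edgeR 4.0.16, used for no test, and median ratios), pseudocounts, UMI minimums, filters, doublets kept, clusterings, classes assigned cell by cell, mitochondrial UMIs left out of the total, equal weight per cell, thinning to 4000 UMIs and leaving out the highest cell.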

Additional observations from a re-analysis of the deposited data

Results flagged for a closer look

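Cyp4b1 differed in direction between cell types: its log2 ratio of male over female was 3.54 in proximal tubule cells and 2.56 in podocytes, and −2.20 in mesangial cells. The podocyte level was 1.64% of the tubule level in male and is not read as podocyte expression. Of mesangial cells, 24 male and 9 female held Cyp4b1, and 37.3% of the male UMIs lay in 1 cell. Endothelial cells had 823 CPM of Cyp4b1 in male and 988 in female. The part of endothelial RNA in the mesangial values was not tested. Gsta4 had a ratio of −3.19 in proximal tubule cells and 0.85 in endothelial cells, and Ugt2b37 of 4.05 in proximal tubule and −0.998 in parietal epithelial cells. Gsta4 was low in endothelial cells, with 54 UMIs over the 3 libraries together, against 9801 in podocytes. The part of RNA from other cells in its endothelial ratio was not tested. None of these differences between cell types was tested, since each library is 1 mouse. Of the Ugt2b37 UMIs in female parietal cells 76.2% lay in 1 cell. The parietal ratio of Ugt2b37 was positive under 4 alternatives, and then had the direction of the tubule. It was 1.64 with strict filters, 1.31 at resolution 2, 1.71 with classes assigned cell by cell and 0.48 without the highest cell. At resolution 2 the parietal class grew from 122 male, 212 female ERaKO and 77 female cells to 163, 286 and 102. The class of cluster 13, with cell cycle genes, fell from 54, 86 and 32 cells to 9, 13 and 10. Cluster 13 had 950 Ugt2b37 UMIs in male, 110 in female ERaKO and 230 in female. Whether its cells entered the parietal class was not tested.

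Among cells outside the named classes, cluster 25 stood out, with 23 male, 5 female ERaKO and 1 female cells and Ly6d, Upk3a and Sprr1a as leading genes. These are fewer than the 30 cells asked of a class, and the female value is that of 1 cell. Gstm1 had 15679 CPM there in male, 4010 in female ERaKO and 8843 in female, and Gsta4 had 4573, 2529 and 2970 CPM in the same order.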

How the results depend on the processing

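No paired analysis was possible because each group is 1 library. Of 87 named ratios, 63 kept their sign under each of the 20 alternatives that gave a value. Some of these could not turn a sign: other UMI minimums leave a ratio as it is, and a larger pseudocount only shrinks it. A ratio of 0 counted as kept, as for Cyp24a1 in female ERaKO over female tubule cells. 3 alternatives, on single clusters, were added after seeing the data. In proximal tubule cells the count of members higher in male (11) was 24 with any UMI, and 7 with strict filters, with separate clustering, with thinning and in Slc5a2 or Slc5a12 cells; the count lower (13) was 22 with any UMI. In female ERaKO the higher count (4) was 2 with a pseudocount of 5, 9 with any UMI, 13 with separate clustering and 10 in cluster 19; the lower count (11) was 19 with any UMI, 4 thinned, 7 in Slc5a2 or Slc5a12 cells and 2 in cluster 19. In podocytes the female ERaKO count (8) was 2 with a pseudocount of 5 and 4 with 50 UMIs or thinned. In parietal cells the male count (7) was 2 with 50 UMIs, 22 with any UMI, 16 strict, 17 at resolution 2, 19 with classes assigned cell by cell and 1 thinned; the female ERaKO count (12) was 5, 22 and, thinned, 2. In endothelial cells the male count (5) was 3 with 50 UMIs, 17 with any and 8 at resolution 2; the female ERaKO count (2) was 4 under both scalings, strict, at resolution 0.5, with members among the clustering genes, thinned and without the highest cell, 5 with doublets kept and at resolution 2, 1 with a pseudocount of 5, 0 with 50 UMIs, 10 with any, 7 with cell-by-cell classes and 8 with separate clustering.

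Ratios that changed sign, male over female in tubule cells: strict filters gave Cyp2j6 −0.19, Cyp2d9 −0.60 and Cyp2j5 −0.086; separate clustering gave Cyp24a1 −0.091, Cyp2j6 −0.14, Cyp2a4 0.089, Cyp2d12 0.21 and Cyp2j11 0.43; thinning gave Cyp2j6 −1.26. In female ERaKO over female, separate clustering gave Cyp4f14 −0.38, Cyp2d12 0.055, Cyp2e1 1.26 and Ugt1a10 0.71; strict filters gave Cyp2j11 −0.30 and Ugt2b34 0.55; thinning gave Cyp4f14 −0.38 and Ugt2b34 1.04; Slc5a2 or Slc5a12 cells gave Cyp2j11 −0.77; leaving out the highest cell gave Ugt2b37 0.42; cluster 19 gave Cyp2d12 0.59, Cyp4b1 0.58, Cyp2d22 0.41, Cyp2e1 0.59 and Ugt1a10 2.47. In podocytes Cyp4f17 was 0.027 thinned. In parietal cells, male over female, strict filters gave Gstt3 −0.077 and Ugt2b37 1.64, resolution 2 gave Ugt2b37 1.31, classes assigned cell by cell gave Ugt2b37 1.71 and Gstm4 0.35, and leaving out the highest cell gave Ugt2b37 0.48. For female ERaKO over female, Ugt2b34 was −0.53 strict, −0.71 at resolution 2 and −0.31 with cell-by-cell classes, Gsta2 −0.20 strict and Cyp2u1 −0.96 thinned. Endothelial Gsta4 was −2.16 with separate clustering. The cause was not tested. At resolution 2 the parietal class held more cells, as given above for Ugt2b37. Tubule cells numbered 64 male, 72 female ERaKO and 20 female under strict filters.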

Other observations

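Cluster 13, with 54 male, 86 female ERaKO and 32 female cells, held cell cycle genes together with genes of the proximal tubule and is given no cell type here. Mki67 had 170 CPM there in male, 120 in female ERaKO and 162 in female, and Slc34a1, the phosphate transporter of the proximal tubule, had 1039, 443 and 725 CPM in the same order. Some members that were higher in male tubule cells were higher in male cells here too. Ugt2b37 had 654 CPM in male, 56.1 in female ERaKO and 237 in female. Cyp4b1 had 576 CPM in male, 32.6 in female ERaKO and 66.0 in female, and Cyp2e1 had 124 CPM in male, 2.04 in female ERaKO and 6.19 in female. Other members did not share the tubule difference. Ugt2b38 had 105 CPM in male, 20.9 in female ERaKO and 77.4 in female, a log2 ratio of 0.43 for male over female. Gsta2 had 81.9 CPM in male, 125 in female ERaKO and 81.5 in female. Cyp4a31 had a ratio of 0.86 here, against −1.03 in tubule cells, and Cyp2j11 a ratio of 3.91, against −0.60. Gstm5, which was under 1.5-fold in tubule cells, had 1281 CPM in male, 383 in female ERaKO and 408 in female.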
